A study of Mus musculus with 4 samples.

Results

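Tcf7 and Lef1 encode the transcription factors TCF-1 and LEF-1. They were followed here as rows of the gene lists with these symbols, 2 genes of the 31053 counted, in 2 pooled single-cell experiments on mouse T-cell progenitors. The cells were grown from bone marrow on OP9-Dll1, a stromal line that carries the Notch ligand Dll1, with IL-7 and Flt3 ligand at 10 ng/ml. An experiment consisted of 1 mRNA library and 1 hashtag library. Hashtags are DNA tags carried by antibodies, put on the cells of a culture so that its cells can be recognised after pooling. All cells carried a Bcl2 transgene per the labels. The study set forced Runx1 expression, and deletion of Runx1 together with Runx3, against controls at this stage. In the design text, 1 arm used progenitors of B6.Bcl2 mice aged 8 to 10 weeks, given MSCV-Runx1-mCherry or MSCV-empty-mCherry on day 2 and harvested after 4 or 6 days of culture. The other arm used B6.Cas9;Bcl2 progenitors, given E42-gRunx1-hNGFR with E42-gRunx3-mTurquoise, 3 guide pairs per gene, or control guides against luciferase, and harvested after 5 or 8 days. Both arms were sorted as live CD45+ cells without lineage markers that carried the vector's reporters. The labels give 4 to 5 days of culture for experiment 1 and 4 to 8 days for experiment 2.

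The hashtag columns carry no condition, so hashtags are numbered 1 to 8 in column order and each is described as 1 sample of unknown condition. A hashtag number does not stand for the same culture in both experiments. Conditions were therefore not compared, and no set of hashtags can be read as replicates. Intervals are given at 95% and hold counting error alone. Of the cells that passed the filters, 8797 in experiment 1 (94.3%) and 8335 in experiment 2 (81.6%) had a hashtag. A hashtag held 691 to 1291 cells and 14502385 to 38067298 UMIs (unique molecular identifiers, each 1 counted molecule) in experiment 1, and 855 to 1312 cells and 22272716 to 42684236 UMIs in experiment 2. The experiments shared 28 cell barcodes among hashtagged cells. Levels are UMIs per 1000000 of a hashtag's summed UMIs (CPM, counts per 1000000). In such sums, fewer cells of a type and less RNA per cell cannot be told apart.

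TCF-1 and LEF-1 are HMG-box proteins that bind the same short DNA motif. They can recruit beta-catenin, the effector of Wnt signalling, or corepressors of the Groucho (TLE) family. In the thymus, Notch signalling switches on Tcf7 in the earliest progenitors, and TCF-1 in turn helps to activate T-lineage genes such as Gata3, Bcl11b and Il2ra. Lef1 comes on later and shares part of its work with Tcf7, and both genes are also used by innate lymphoid cells.

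Tcf7 (ENSMUSG00000000782) lies at chr11:52246527-52283383 and Lef1 (ENSMUSG00000027985) at chr3:131110297-131224357 in the RefSeq table for GRCm38.p6, the build family named in the submitters' processing notes. Windows of 250 bases upstream of annotated starts were searched on both strands for 4 motifs, since the factors studied (RUNX), the members themselves (TCF/LEF), Notch's partner RBPJ and GATA-3 are all active at this stage. The letters were TGTGGT or TGCGGT for RUNX, CTTTGA or CTTTGT for TCF/LEF, TGGGAA for RBPJ, and AGATAA or TGATAA for GATA. The table held 4 Lef1 windows and 2 Tcf7 windows. The window at an internal Lef1 start, inside the gene, held 3 TCF/LEF matches and 1 GATA match, printed in capitals, none overlapping another. The window before the first Lef1 start held no match, and nor did any other window of either gene. Both Tcf7 windows lie inside the gene as placed above, so no bases upstream of the whole of Tcf7 were searched. The sequences of these 2 Lef1 windows, from RefSeq and on the plus strand, are shown because only the internal one carries letters of the members' own motif.
Lef1, first start, chr3:131110047-131110296: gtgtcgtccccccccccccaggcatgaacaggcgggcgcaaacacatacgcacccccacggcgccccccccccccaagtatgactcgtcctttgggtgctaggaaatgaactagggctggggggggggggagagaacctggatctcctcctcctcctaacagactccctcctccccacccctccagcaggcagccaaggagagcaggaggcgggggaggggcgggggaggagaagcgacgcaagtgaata
Lef1, internal start, chr3:131156044-131156293: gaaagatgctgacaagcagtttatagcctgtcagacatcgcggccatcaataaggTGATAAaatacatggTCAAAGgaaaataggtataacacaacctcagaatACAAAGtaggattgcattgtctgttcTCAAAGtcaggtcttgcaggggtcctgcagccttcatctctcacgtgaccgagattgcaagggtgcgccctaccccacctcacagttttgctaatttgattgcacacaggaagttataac
Of 32851 such windows in the table, 27.6% held a TCF/LEF match, 16.6% a GATA match, 18.6% a RUNX match and 21.6% an RBPJ match. These are matches of letters, not measured sites. The counts come from 3' tags and do not tell which start a transcript used.

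Tcf7 was detected widely, and its level differed several-fold between hashtags. In experiment 1 its level was 118 CPM in hashtag 1, 103 in hashtag 2, 258 in hashtag 3, 273 in hashtag 4, 174 in hashtag 5, 161 in hashtag 6, 109 in hashtag 7 and 95.3 in hashtag 8. Hashtags 3 and 4 stood highest, and the ratio of hashtag 4 to hashtag 8 was 2.86 (2.70 to 3.03). In experiment 2 the level was 49.6 CPM in hashtag 1, 179 in hashtag 2, 96.7 in hashtag 3, 206 in hashtag 4, 65.0 in hashtag 5, 28.2 in hashtag 6, 156 in hashtag 7 and 95.2 in hashtag 8. The ratio of hashtag 4 to hashtag 6 was 7.32 (6.78 to 7.91), and it was 4.16 when hashtag 6 was left out. All neighbours in the order of levels differed beyond counting error in experiment 1. In experiment 2 hashtags 3 and 8 did not, with a ratio of 1.02 (0.964 to 1.07).

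**Figure D1:**
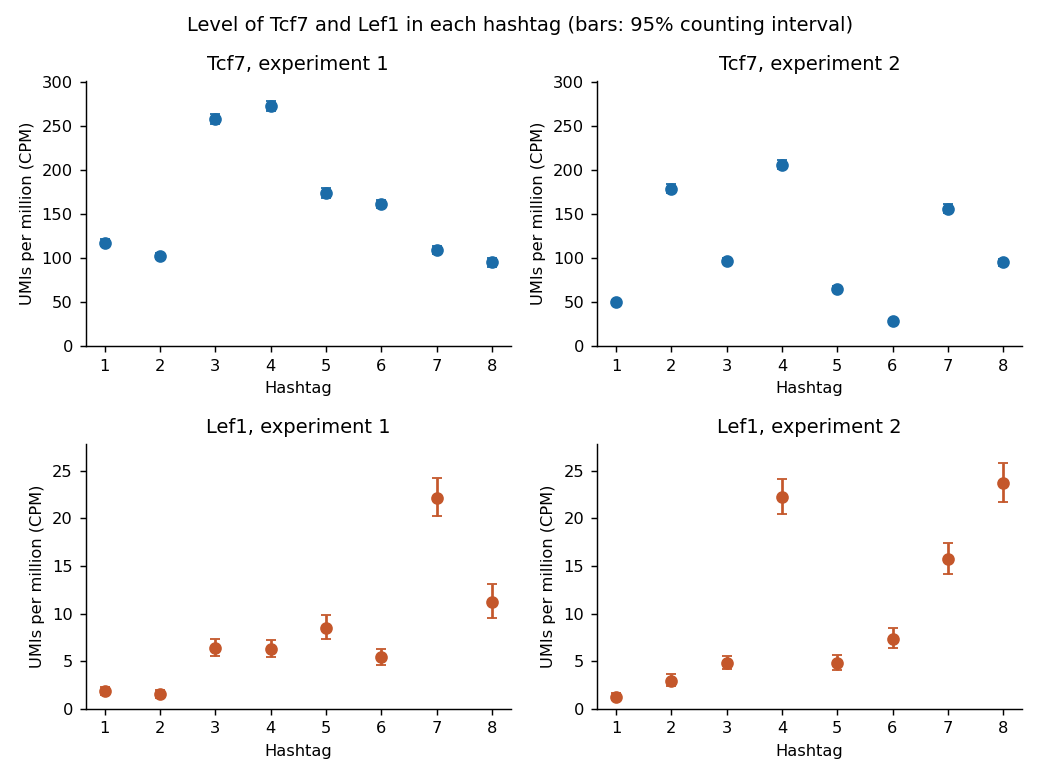
Level of Tcf7 (upper panels) and Lef1 (lower panels) in CPM for each of the 8 hashtags of experiment 1 (left) and experiment 2 (right). Points are CPM of summed UMIs and bars are exact 95% Poisson intervals. Tcf7 is highest in hashtags 3 and 4 of experiment 1, where Lef1 is highest in hashtag 7.

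Lef1 was sparse and ranged more widely than Tcf7 did. In experiment 1 its level was 1.84 CPM in hashtag 1, 1.53 in hashtag 2, 6.40 in hashtag 3, 6.25 in hashtag 4, 8.50 in hashtag 5, 5.39 in hashtag 6, 22.2 in hashtag 7 and 11.2 in hashtag 8. The ratio of hashtag 7 to hashtag 2 was 14.5 (11.0 to 19.5), and 7.35 when hashtag 7 was left out. In experiment 2 the level was 1.25 CPM in hashtag 1, 2.97 in hashtag 2, 4.80 in hashtag 3, 22.3 in hashtag 4, 4.79 in hashtag 5, 7.37 in hashtag 6, 15.7 in hashtag 7 and 23.7 in hashtag 8. The ratio of hashtag 8 to hashtag 1 was 18.9 (13.8 to 26.4), and it was 7.98 when hashtag 1 was left out. Neighbours within counting error were hashtags 1 and 2, 4 and 6, and 3 and 4 in experiment 1, and hashtags 3 and 5, and 8 and 4 in experiment 2. Few cells carry these counts: the 5 cells with the most Lef1 UMIs held 55.4% of them in hashtag 2 of experiment 1 and 5.33% in hashtag 4 of experiment 2.

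These spreads can be set against all genes. Genes were tested if they averaged 20 CPM or more and had 10 UMIs or more in their lowest hashtag. Of these, 6.47% reached a ratio of 2 between hashtags in experiment 1 (354 of 5472) and 11.2% in experiment 2 (572 of 5108). Tcf7 passed that filter and that ratio in both experiments, and Lef1 lay below the minimum mean. Without the minimum mean, 20.5% of 11249 genes reached the ratio in experiment 1 and 28.1% of 11605 genes in experiment 2, and both members were among them in both experiments. The median ratio of those larger sets was 1.38 and 1.49.

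The order of hashtags was not the same for the members. In experiment 1, hashtags 3 and 4 had the highest Tcf7 but middling Lef1, while hashtags 7 and 8 had low Tcf7 and the highest Lef1. Tcf7 UMIs per Lef1 UMI numbered 63.9, 67.1, 40.3, 43.6, 20.5, 29.9, 4.91 and 8.48 in hashtags 1 to 8 of experiment 1. In experiment 2 the same quantity was 39.6, 60.3, 20.1, 9.26, 13.6, 3.82, 9.91 and 4.02. The detection of each gene's transcript was not calibrated, so it is how this quantity varies, and not its size, that can be read. Over the 8 hashtags of experiment 1, Pearson's r of log2(CPM + 1) was 0.03 (exact permutation test, two-sided, p = 0.949) and Spearman's rho -0.07 (p = 0.882, exact permutation test). Over the 8 hashtags of experiment 2, r was 0.40 (p = 0.322, adjusted p = 0.643 over 2 relations, exact permutation test) and rho 0.29 (p = 0.501, exact permutation test). Without the 2 hashtags farthest from the median of Tcf7, r was 0.02 and 0.40. Neither relation was past 0.05, and 8 hashtags leave room for a relation of moderate size.

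Per cell, the differences in Tcf7 were seen both in the share of cells with a UMI and in the number of UMIs per such cell. Before thinning, the share of cells with a Tcf7 UMI ran from 44.6% in hashtag 7 to 93.3% in hashtag 4 of experiment 1, and from 21.1% in hashtag 6 to 82.0% in hashtag 2 of experiment 2. Hashtags differed in depth, with median UMIs per cell from 18057.5 to 29606 in experiment 1, so each cell was also thinned to 10000 UMIs. This left out 573 shallower cells in experiment 1 (6.51%) and 589 in experiment 2 (7.07%). The loss was uneven, with 212 of 1198 cells in hashtag 7 of experiment 1 and 177 of 1170 in hashtag 4 of experiment 2. The other hashtags lost 42 to 66 cells and 34 to 80 cells. Thinned shares therefore describe the deeper cells of a hashtag. After thinning, the share was 53.7, 50.2, 82.9, 84.3, 67.3, 63.6, 42.2 and 37.8% in hashtags 1 to 8 of experiment 1. In experiment 2 it was 29.4, 69.2, 49.8, 69.7, 33.6, 14.1, 67.2 and 41.1%. Cells with at least 5 Tcf7 UMIs made up 19.2% of thinned cells in hashtag 3 and 19.1% in hashtag 4 of experiment 1, against 3.03% in hashtag 2. Hashtags 1 and 7 of experiment 1 show how the measures can part. Their levels were close, but hashtag 1 had more cells with a UMI and fewer UMIs in each of them, 2.16 against 2.59 on average.

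**Figure D2:**
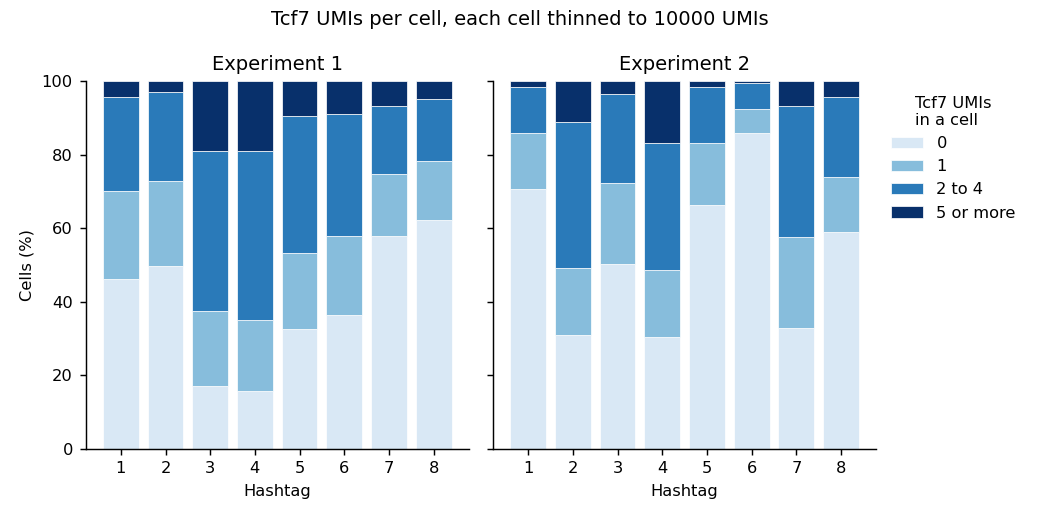
Share of cells (vertical axis, %) with 0, 1, 2 to 4, and 5 or more Tcf7 UMIs in each hashtag, after thinning every cell to 10000 UMIs. Cells with 5 or more UMIs are most frequent in hashtags 3 and 4 of experiment 1, at 19.2 and 19.1%, and in hashtag 4 of experiment 2.

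Lef1 was found more often in cells with a Tcf7 UMI than in cells without one. In thinned cells, a Lef1 UMI was present in 6.61% of cells with Tcf7 and in 3.36% of cells without it in experiment 1, a difference of 3.25 percentage points (2.30 to 4.17). In experiment 2 the shares were 11.9% and 3.83%, a difference of 8.03 points (6.84 to 9.24). Of the cells with a Lef1 UMI, 76.0% in experiment 1 and 73.6% in experiment 2 had a Tcf7 UMI. Among all thinned cells, 5070 of 8224 in experiment 1 and 3676 of 7746 in experiment 2 had one. The difference was above 0 in each of the 16 hashtags, although its interval included 0 in hashtags 2, 3 and 4 of experiment 1 and in hashtags 2 and 7 of experiment 2. It was largest in hashtag 8 of experiment 2, where 28.6% of cells with Tcf7 and 6.87% of those without it had a Lef1 UMI. Cells are not replicates, and these intervals cover counting error.

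The labels describe the cells as Kit-high progenitors of the first phase of T-cell development, before commitment. Kit, the receptor for stem cell factor, and Il2ra, the alpha chain of the IL-2 receptor that appears at the next stage, were therefore used to divide the thinned cells. Cells with Kit and without Il2ra UMIs made up 20.4% in experiment 1 and 16.9% in experiment 2, cells with both 26.0% and 11.7%, cells with Il2ra alone 29.0% and 28.2%, and cells with neither 24.6% and 43.2%. Absence of a UMI does not show absence of the transcript. The share of cells with a Tcf7 UMI was 53.1% (50.7 to 55.5%) with Kit alone, 79.4% (77.6 to 81.1%) with both and 73.0% (71.2 to 74.8%) with Il2ra alone in experiment 1. In experiment 2 it was 44.0%, 76.7% and 70.8%. Cells with neither had the lowest shares, 36.6% and 25.7%.

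The spread between hashtags was wide in cells without Il2ra. Among cells with Kit and no Il2ra UMI, the share with Tcf7 ran from 7.48% in hashtag 7 to 83.4% in hashtag 3 of experiment 1, and from 5.71% in hashtag 6 to 74.2% in hashtag 2 of experiment 2. Among cells with neither, it ran from 6.37% in hashtag 8 to 76.2% in hashtag 4 of experiment 1, and from 4.20% in hashtag 6 to 58.9% in hashtag 2 of experiment 2. Among cells with both, it ran from 58.9 to 91.5% and from 52.4 to 85.6%. Restricted to those cells, the ratio of the highest to the lowest hashtag for Tcf7 was 1.90 (1.66 to 2.19) in experiment 1 and 2.50 (1.85 to 3.46) in experiment 2. For Lef1 the same ratio was 8.78 (4.06 to 22.6) and 10.0 (3.17 to 51.1).

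**Figure D3:**
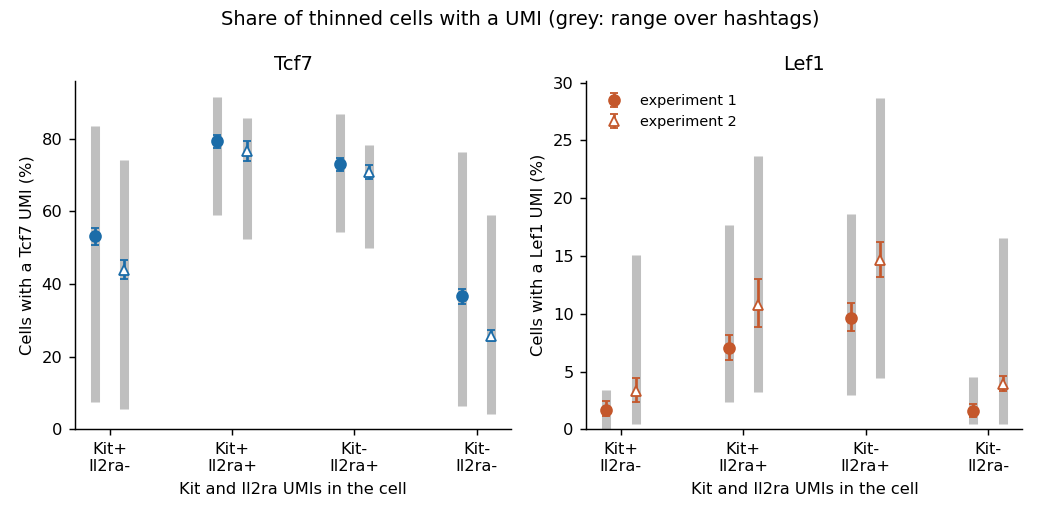
Share of thinned cells with a Tcf7 UMI (left) or a Lef1 UMI (right), in percent, by the presence of Kit and Il2ra UMIs in the same cell. Symbols are all hashtagged cells of an experiment with exact 95% binomial intervals, and grey bars span the 8 hashtags. The bar for Tcf7 in cells with Kit alone runs from 7.48 to 83.4% in experiment 1.

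Lef1 was lower in Kit cells without Il2ra and higher in cells with Il2ra. A Lef1 UMI was present in 1.67% of cells with Kit alone, 7.02% with both and 9.67% with Il2ra alone in experiment 1, and in 3.29, 10.8 and 14.7% in experiment 2. Bcl11b, the factor that closes the progenitor phase, divided Lef1 further. Among cells with Bcl11b, 17.9% (15.4 to 20.6%) had Lef1 in experiment 1, against 3.88% (3.45 to 4.34%) of cells without it. In experiment 2 the shares were 22.0% (19.8 to 24.5%) and 4.89% (4.38 to 5.44%). Among cells with Il2ra, the share with Lef1 was 6.23% without Bcl11b and 19.7% with it in experiment 1, and 10.3% and 20.7% in experiment 2. Tcf7 varied less along this step, from 74.4 to 84.2% and from 69.9 to 78.3%.

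Cells were also clustered without using either member, and clusters were named only from markers. The cluster results describe where each gene was found. In experiment 1, Tcf7 was highest in cluster 5, an unnamed cluster led by Pgam2, Gsn and the adhesion gene Cdh1 and held almost wholly by hashtags 3 and 4, at 351 CPM (342 to 360). Cluster 8, from the same hashtags and led by Pgam2, Gsn and the T-cell receptor component Cd3g, had 289 CPM. The T-lineage-like cluster 6, led by genes that include Epcam and Trat1, had 250 CPM (243 to 257). The innate lymphoid-like cluster 10, which carried the receptor gene Klrk1 and the chemokine Xcl1, had 260.2 CPM (243 to 279). Unnamed clusters 1 and 2, the largest, had 183 and 176 CPM.

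Below these came unnamed cluster 3, led by Sh2d1a and Capg and held almost wholly by hashtags 7 and 8, at 72.5 CPM. The early progenitor-like cluster 7, with Mef2c and Lmo2 among its leading genes, had 45.0 CPM (42.6 to 47.6). Unnamed cluster 4, led by the myeloid-expressed genes Tgfbi and Ms4a4c, had 24.7 CPM. The mast or basophil-like cluster 11 had 7.70 CPM (4.77 to 11.8). Free RNA can add UMIs to any cell. This last cluster, a cell type not known for Tcf7 and with a median depth of 22608 UMIs per cell, sets a level at or below which Tcf7 was read as background. Smaller clusters of such types lay on both sides of it. The granulocyte or monocyte-like cluster 12, of 46 cells, had 3.63 CPM (1.33 to 7.90). The stromal-like cluster 13, of 16 cells, had 75.4 CPM (57.3 to 97.5) from 58 UMIs, of which 31 came from 3 cells of hashtag 4. Against these few cells, the summed levels of clusters 3, 7 and 4 were not set apart from background. They lay above the intervals of clusters 11 and 12, with 22.9 to 26.7 CPM for cluster 4, the lowest of them.

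Lef1 was held by fewer clusters. In experiment 1 it was highest in the innate lymphoid-like cluster 10, at 93.1 CPM (82.8 to 104), followed by the T-lineage-like cluster 6 at 27.8 (25.4 to 30.4) and cluster 3 at 17.6 (15.6 to 19.8). Cluster 10 held 2.09% of the cells and 19.9% of the Lef1 UMIs, against 2.28% of the Tcf7 UMIs. Clusters 1 and 2, with 183 and 176 CPM of Tcf7, had 0.398 and 1.28 CPM of Lef1. The 15 Lef1 UMIs of cluster 1 came from 1647 cells. The mast or basophil-like cluster had no Lef1 UMI. With 3 UMIs put in for it as a floor, the innate lymphoid-like cluster was 84.6-fold higher (28.7 to 413).

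In experiment 2, Tcf7 was highest in the T-lineage-like cluster 8, led by Themis, at 375 CPM (361 to 389), and in unnamed cluster 4, led by Pgam2 and Gsn, at 251 CPM. The T-lineage-like cluster 3, led by genes that include Sh2d1a and Ctla4, had 176 CPM, and cluster 1, led by genes that include Il2ra, had 155 CPM. The early progenitor-like clusters 2, 5 and 9 had 18.8, 65.3 and 32.2 CPM. The dendritic-like cluster 6 had 23.8 CPM and the granulocyte or monocyte-like cluster 7, with Prtn3 among its leading genes, had 6.31 CPM (5.24 to 7.53). Other clusters of types not known for Tcf7 had more, with 15.5 CPM (11.3 to 20.9) in the mast or basophil-like cluster 14, 24.5 CPM in the stromal-like cluster 10 and 29.3 CPM in the granulocyte or monocyte-like cluster 12. Few cells carry the level of cluster 12. Of its 109 Tcf7 UMIs, 40 came from 12 cells of hashtag 3 and 33 from 14 cells of hashtag 4. Against these clusters, the summed level of the early progenitor-like cluster 2 was not set apart from background in experiment 2. Nor was cluster 9 (28.6 to 36.2 CPM) set apart from cluster 12 (24.0 to 35.3 CPM).

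Lef1 in experiment 2 was highest in a small B-lineage-like cluster of 81 cells, at 68.2 CPM (56.6 to 81.4), where Tcf7 was 39.1 CPM. Lef1 is known to be used by early B-cell progenitors. Next came the innate lymphoid-like cluster 11 at 62.2 CPM, the T-lineage-like clusters 8 and 3 at 46.7 and 34.3 CPM, and the mature T-like cluster 13, which carried Cd8b1 and Trac, at 39.9 CPM. In cluster 13 Tcf7 was 69.6 CPM. Cluster 1 had 1.59 CPM of Lef1 and the early progenitor-like cluster 5 had 0.102 CPM from 2 UMIs. The stromal-like cluster 10, of 207 cells led by collagen genes, had 4.49 CPM, although the sort was for CD45+ cells.

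**Figure D4:**
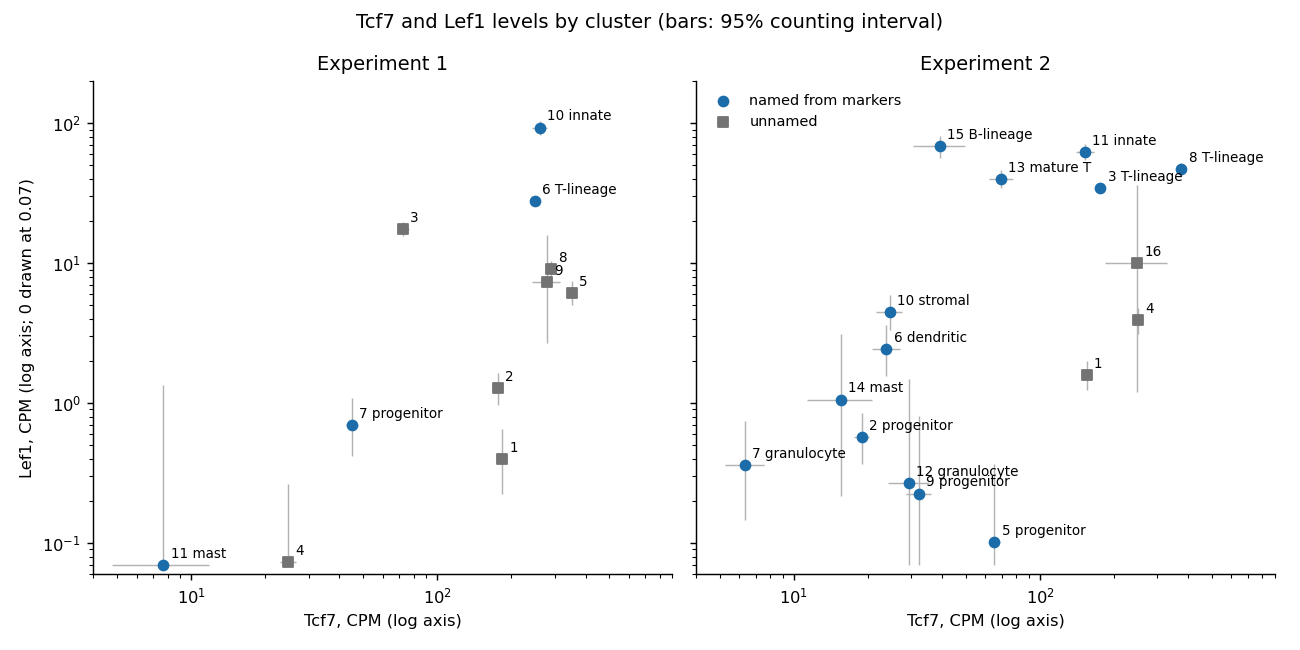
Level of Tcf7 (horizontal axis) against Lef1 (vertical axis) in CPM, on log axes, for clusters of at least 50 cells in each experiment. Numbers are clusters, names come from marker genes, and bars are exact 95% Poisson intervals. Clusters 1 and 2 of experiment 1 lie at high Tcf7 and low Lef1, and the innate lymphoid-like clusters at high levels of both.

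Within clusters, Tcf7 varied little between hashtags in the T-lineage-like clusters 6 of experiment 1 and 3 of experiment 2 and in some unnamed clusters, and more in progenitor-like clusters. In the T-lineage-like cluster 6 of experiment 1 it lay between 221 and 311 CPM over 8 hashtags, a ratio of 1.41 (1.15 to 1.72). In cluster 1 it lay between 155 and 245 CPM, a ratio of 1.58 (1.43 to 1.75), and in cluster 2 between 158 and 203 CPM, a ratio of 1.28 (1.18 to 1.39). In unnamed cluster 4 it ran from 5.07 CPM in hashtag 7, from 4 UMIs, to 60.9 CPM in hashtag 4, a ratio of 12.0 (4.51 to 45.1). In the early progenitor-like cluster 7 its level was 46.7 CPM in hashtag 1, 42.8 in hashtag 2, 97.5 in hashtag 3, 136 in hashtag 4, 32.7 in hashtag 5, 70.7 in hashtag 6, 4.79 in hashtag 7 and 7.94 in hashtag 8. The ratio of hashtag 4 to hashtag 7 was 28.5 (16.3 to 54.5). Hashtags 7 and 8 were near the level of the mast or basophil-like cluster. These hashtags had 97 and 86 cells in cluster 7, and hashtags 3 and 4 had 25 and 36.

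In experiment 2, Tcf7 in cluster 1 lay between 130.2 and 175 CPM over 8 hashtags, a ratio of 1.35 (1.10 to 1.67). In the T-lineage-like cluster 3 it lay between 142 and 219 CPM over 7 hashtags, a ratio of 1.54 (1.34 to 1.77). In the early progenitor-like cluster 2 its level was 38.8 CPM in hashtag 3, 38.7 in hashtag 4, 21.8 in hashtag 5, 2.77 in hashtag 6 and 3.01 in hashtag 8. The ratio of hashtag 3 to hashtag 6 was 14.0 (10.0 to 20.0), and the values of hashtags 6 and 8 were below the level of the granulocyte or monocyte-like cluster. In the early progenitor-like cluster 5 the ratio over 7 hashtags was 3.81 (2.69 to 5.52), from 37.2 to 142 CPM. Clusters of other lineages varied as well. In the dendritic-like cluster 6 the ratio was 19.5 (11.5 to 35.3), from 5.70 CPM in hashtag 5 to 111 CPM in hashtag 2, where 59.4% of 64 cells had a Tcf7 UMI, and the other hashtags lay at or below 25.9 CPM. In the granulocyte or monocyte-like cluster 7 it was 10.6 (4.65 to 28.4), from 2.85 to 30.3 CPM. Cells of 1 cluster need not be at the same stage in every hashtag, and the part of this in these ratios was not tested.

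**Figure D5:**
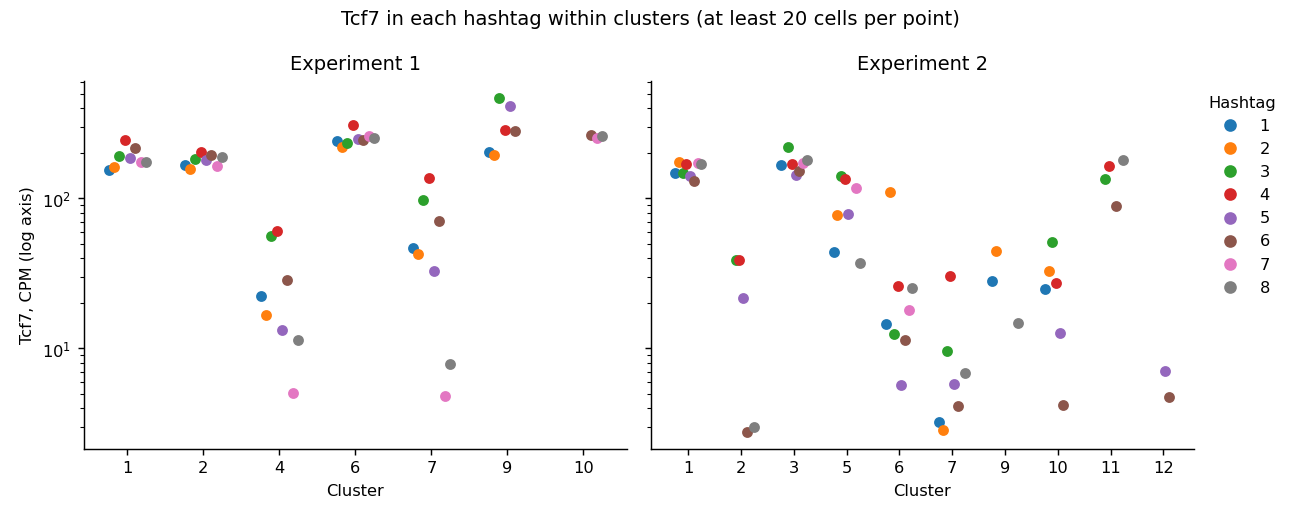
Level of Tcf7 in CPM (log axis) in each hashtag within clusters that had at least 20 cells in 3 or more hashtags. Each point is 1 hashtag, and hashtag 8 of cluster 12 in experiment 2, at 0, is not drawn. Points lie close together in clusters 1, 2 and 6 of experiment 1 and apart in cluster 7, from 4.79 to 136 CPM.

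Lef1 varied within clusters as well as through their mixture. In the T-lineage-like cluster 6 of experiment 1 it ran from 19.6 CPM in hashtag 1 to 39.8 in hashtag 7, a ratio of 2.03 (1.39 to 3.02). In the innate lymphoid-like cluster 10 it was 48.9 CPM in hashtag 6, 141 in hashtag 7 and 125 in hashtag 8, while Tcf7 in the same cells was 264, 252 and 260.3 CPM. In the T-lineage-like cluster 3 of experiment 2, Lef1 was 14.1 CPM in hashtag 1, 33.3 in hashtag 3, 46.2 in hashtag 4, 24.1 in hashtag 5, 41.9 in hashtag 6, 26.0 in hashtag 7 and 45.9 in hashtag 8. That is a ratio of 3.28 (1.74 to 6.52) between hashtags 4 and 1. In the innate lymphoid-like cluster 11 it was 37.2, 57.7, 41.9 and 111 CPM in hashtags 3, 4, 6 and 8.

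Hashtags drew their Lef1 from different clusters. In experiment 1 the T-lineage-like cluster 6 held 54.3, 67.9, 81.0 and 67.1% of the Lef1 UMIs in hashtags 1, 2, 5 and 6. In hashtags 3 and 4, cluster 8 held 49.5 and 56.6% and cluster 5 held 27.9 and 26.0%. In hashtags 7 and 8, cluster 3 held 45.1 and 31.3%, cluster 10 held 30.3 and 35.0%, and cluster 6 held 21.7 and 22.7%. In experiment 2 the T-lineage-like cluster 3 held 74.6 and 75.0% in hashtags 7 and 8, and the T-lineage-like cluster 8 held 52.2% in hashtag 4, where the mature T-like cluster 13 held 18.9%. The mature T-like and innate lymphoid-like clusters made up 9.06% and 2.56% of the cells of that hashtag. Without them the Lef1 ratio of the highest to the lowest hashtag was 20.7 in experiment 2 and 12.8 in experiment 1.

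Cells of other lineages were frequent in experiment 2. Clusters named for granulocytes or monocytes, mast cells or basophils, dendritic cells, B cells or stroma made up 27.7, 18.0, 14.3, 12.8, 31.6, 30.8, 8.85 and 19.8% of the cells of hashtags 1 to 8. Hashtags 1, 5 and 6, with the lowest Tcf7, had the highest shares, but hashtag 2, with 179 CPM of Tcf7, had a higher share than hashtag 3, with 96.7 CPM. The summed level of the 12 granulocyte or monocyte markers, all of them detected, ran from 231 CPM in hashtag 7 to 12416 CPM in hashtag 6. Without those clusters the Tcf7 ratio was 6.52 (6.03 to 7.07), against 7.32 with them. In experiment 1 they made up 1.15 to 3.67% of a hashtag's cells.

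The pathway around the members was read from lists of 66 genes, the members included. In experiment 1, 35 of them passed the minimum of 20 CPM and 17 reached a ratio of 2 between hashtags, against 6.47% of all genes tested (354 of 5472). In experiment 2, 34 passed and 23 reached it, against 11.2% (572 of 5108). Their median ratios were 1.91 and 3.30, against 1.25 and 1.30 over all genes tested. The lists were chosen with knowledge of earlier results on these data, so these counts and medians describe them and are no independent evidence.

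Among the paralogs, Tcf7l2 was low. It lay between 5.71 and 14.1 CPM in the first experiment and between 6.50 and 19.4 CPM in the other. Its highest hashtag was 7 in experiment 1 and 6 in experiment 2, where Tcf7 was low. Tcf7l1 had at most 0.586 CPM in experiment 1. In experiment 2 it lay between 1.57 and 9.64 CPM. Of 6 Groucho genes, 3 passed the minimum in experiment 1 and 2 in experiment 2, and none of those reached a ratio of 2. Among those that passed, Tle3 came nearest, with 1.59 (1.49 to 1.69) and 1.96 (1.81 to 2.14), highest in hashtag 4 both times. Without the minimum mean, all 6 were tested in each experiment, and Tle2 and Tle6 reached a ratio of 2 in both. Tle6 had ratios of 4.81 and 3.49, and Tle2 had 6.89 in experiment 2. No ratio is given for Tle2 in experiment 1, where its fewest UMIs in a hashtag were 7. Both genes were highest in hashtag 4 of experiment 1 and in hashtag 2 of experiment 2. Of 12 Wnt and beta-catenin genes, 5 and 3 passed, and none of those reached a ratio of 2. Without the minimum mean, 10 of the 12 had enough UMIs to be tested in each experiment. Of those 10, 1 reached the ratio in experiment 1 and 3 in experiment 2. The shares of all genes tested were then 20.5% and 28.1%. Those genes were Axin2, at 2.23 (1.59 to 3.16) and 2.65 (1.49 to 4.89), and in experiment 2 also Ctnnbip1 (4.15) and Nkd1 (3.75). Ctnnb1, which encodes beta-catenin, was close to flat, at 111 to 115 CPM over the hashtags of the first experiment and 74.2 to 86.4 CPM over those of the other. Axin2, a target that Wnt signalling induces in many tissues, lay between 0.673 and 3.29 CPM in all 16 hashtags.

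Of 8 Notch receptor and target genes, 5 passed the minimum in experiment 1 and 3 reached a ratio of 2, and 4 passed and 2 reached it in experiment 2. Hes1, a repressor that Notch induces, was highest where Tcf7 was high, at 112 and 108 CPM in hashtags 3 and 4 of experiment 1 and at 114 and 136 CPM in hashtags 2 and 4 of experiment 2. Its other levels lay between 46.7 and 61.2 CPM and between 40.8 and 74.0 CPM. Dtx1, another Notch target, had its lowest levels in hashtags 3 and 4 of experiment 1, at 30.2 and 28.2 CPM, and was highest in hashtag 7, at 56.4 CPM. Notch1 was highest in hashtag 7 of experiment 1, at 126 CPM, and in hashtag 8 of experiment 2, at 64.7 CPM.

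Of 13 T-lineage genes known to depend on TCF-1 or to follow it, 7 passed the minimum in experiment 1 and 6 reached a ratio of 2, and 10 passed and all 10 reached it in experiment 2. They did not share 1 order. Gata3, a T-lineage factor, was 50.1, 44.6, 141, 142, 64.8, 65.2, 64.9 and 56.3 CPM in hashtags 1 to 8 of experiment 1, with hashtags 3 and 4 apart as for Tcf7. In experiment 2 it was 24.9, 85.1, 36.1, 102, 33.0, 24.8, 53.1 and 39.5 CPM, again highest in hashtags 4 and 2. Cd3g was 174 and 194 CPM in hashtags 3 and 4 of experiment 1 and 13.7 CPM in hashtag 8. Il2ra followed another order and was highest in hashtag 7 of both experiments, at 495 and 341 CPM. In hashtags 3 and 4 of experiment 1 it was 172 and 207 CPM. Thy1, a surface marker of T-lineage cells, was highest in hashtag 5 of experiment 1, at 136 CPM, and in hashtag 7 of experiment 2, at 210.5 CPM.

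Of 8 innate lymphoid genes, 2 passed the minimum in each experiment and both reached a ratio of 2. Id2, which blocks E proteins in innate lymphoid cells, was 103 and 86.1 CPM in hashtags 7 and 8 of experiment 1, where Lef1 was highest, and 32.0 to 55.6 CPM in the others. In experiment 2 it did not keep to the order of Lef1, with 119.9 CPM in hashtag 8, 119 in hashtag 6 and 95.8 in hashtag 5, where Lef1 was 23.7, 7.37 and 4.79 CPM, and 51.3 CPM in hashtag 7, where Lef1 was 15.7 CPM. Tox, an HMG-box factor of T and innate lymphoid cells, was 42.3 and 31.5 CPM in hashtags 7 and 8 of experiment 1 and 10.2 to 21.1 CPM in the others. Zbtb16, which encodes PLZF, was below the minimum on average and followed Tcf7 instead, at 36.0 and 37.8 CPM in hashtags 3 and 4 of experiment 1 and 1.94 to 9.14 CPM in the others. Of 11 progenitor genes that T cells switch off, 8 passed in each experiment, and 3 and 6 reached a ratio of 2. Lmo2, a stem and progenitor factor, was 32.2 and 25.8 CPM in hashtags 3 and 4 of experiment 1 and 33.3 to 80.4 CPM elsewhere. Spi1, which encodes PU.1, had a hashtag ratio of 1.62 (1.54 to 1.70) in experiment 1, and in experiment 2 the ratio was 3.60 (3.43 to 3.79). All 4 Runx and partner genes passed in both experiments, and Runx1 and Runx2 reached a ratio of 2 in each. The Runx1 counts do not separate vector from mouse transcripts.

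The genes whose hashtag profiles were most like that of Tcf7 were found over 16 hashtags, on log2(CPM + 1) centred within each experiment, among 5313 genes averaging 20 CPM or more. They were Ssbp3 (r = 0.99), the co-chaperone gene Fkbp5 (0.98), the adaptor gene Sla2 (0.97), the kinase gene Camkk2 (0.97) and Tbrg1 (0.97). The most opposite were Derl1 (-0.94), Fam49b (-0.93) and Twf2 (-0.93). For Lef1 the most alike included the adaptor gene Skap1 (0.95), Zfand6 (0.95), Tox (0.95) and Rcbtb2 (0.94). The most opposite were Ppan (-0.95), Bola2 (-0.95) and Ddx49 (-0.94). On the same scale, r between Tcf7 and Lef1 was 0.27. Hashtags of an experiment share a library, and 5313 genes were searched over 16 points, so these values rank genes and do not test them.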

How the data were processed

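The authors deposited raw UMI counts for each gene in each cell, not normalized. The submitters' processing notes name Cell Ranger 3.0.0 and the builds mm10 and GRCm38, and the labels' protocols name 10x Chromium version 3. The deposited hashtag tables hold raw counts for 8 tags per cell. Of 31053 gene IDs, 30934 matched the gene name table, and the 71 rows whose symbol recurs were treated as separate genes. Experiment 1 held 9967 barcodes and experiment 2 held 10556.

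A cell was used if it had 500 genes or more and less than 10% mitochondrial UMIs. A hashtag was called where the top tag had at least 50 counts and at least 3 times the second, which leaves out most doublets between hashtags but not those within one. UMIs were summed per hashtag. Intervals are exact Poisson (CPM), conditional (ratios) and Clopper-Pearson (shares), and cover counting error only. Clusters came from scanpy 1.11.5 (2000 variable genes without the members, 30 components, 15 neighbours, Leiden resolution 0.5) and took a name with at least 3 markers among 50 leading genes. Genes named are the members, those of the lists, the 5 most alike and 3 most opposite by r, and up to 5 leading genes of a cluster. A gene alike to Lef1 that this rule names is not reported here. The ratio call was tested on simulated Poisson counts. They held no mixture of cell types and no added variation between cells, so the call was not tested under those. Alternatives covered hashtag calls (HTODemux in Seurat 5.3.0), cell filters, scaling (edgeR 4.0.16, DESeq2 1.42.0), thinning, clustering and call rules. Members and lists were chosen with earlier results of these data known.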

Additional observations from a re-analysis of the deposited data

Results flagged for a closer look

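Lef1 in hashtag 7 of experiment 1, at 22.2 CPM, lay apart from the other 7 hashtags, of which the next highest had 11.2 CPM. That gap was 0.529 of the whole range, just past the limit for 8 values (Dixon's 95% critical value), and it was 1 of 12 sets of 8 hashtag values checked, where chance passes about 1 in 20. The 5 cells with the most Lef1 UMIs held 13.6% of them, and without those cells the level was 19.1 CPM.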

How the results depend on the processing

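Highest-to-lowest hashtag ratios of Tcf7 moved by more than their counting interval under several settings. In experiment 1 (2.86) the ratio was 3.36 for cells of 1000 genes or more with less than 5% mitochondrial UMIs, 3.08 as a mean over cells, and 2.66 to 2.86 when each hashtag was left out in turn. In experiment 2 (7.32) it was 6.52 without clusters of other lineages, 8.60 without innate lymphoid-like and mature T-like clusters, 8.30 after thinning, 6.75 with DESeq2 size factors, 8.30 as a mean over cells, and 4.16 to 7.32 when each hashtag was left out, lowest without hashtag 6. In cells with a Kit and an Il2ra UMI, the ratios were 1.90 and 2.50 for Tcf7 and 8.78 and 10.0 for Lef1. Leaving out each hashtag gave 7.35 to 14.5 for Lef1 in experiment 1, lowest without hashtag 7, and 7.98 to 18.9 in experiment 2, lowest without hashtag 1. The settings that select cells by Kit and Il2ra, drop the innate lymphoid-like and mature T-like clusters, or drop clusters of low depth were chosen after seeing the data.

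The correlation of Tcf7 with Lef1 in experiment 1, 0.03 and not past the threshold, turned to -0.075 in cells with Kit and Il2ra, -0.0075 with TMM factors, -0.0090 with size factors and -0.096 as a mean over cells, and lay between -0.24 and 0.32 when each hashtag was left out. In experiment 2 it lay between 0.22 and 0.63. The excess of Lef1 in cells with Tcf7 grew with depth: 0.959 points at 5000 UMIs and 5.42 without thinning in experiment 1, and 4.48 and 12.5 in experiment 2. The highest-to-lowest cluster ratio of Tcf7 in experiment 2 (59.5) was 109.9 (37.6 to 533, against a cluster with 1 UMI) at resolution 1.0. For Lef1, 3 UMIs in the lowest cluster served as the floor. The ratio of experiment 2 was 445 (149 to 2188), the lowest cluster having 2 UMIs. It was 21.2 (7.07 to 104) at resolution 1.0 and 82.7 (27.6 to 407) with 3000 variable genes. There 3 UMIs of the lowest cluster came to 3.22 and 0.825 CPM, against 0.153 CPM. In experiment 1 it went from 84.6 to 329 (111 to 1603) at resolution 1.0, with no Lef1 UMI in the lowest cluster either time. There 3 UMIs of the lowest cluster came to 0.296 CPM, against 1.10 CPM, and the highest cluster had 97.2 CPM, against 93.1 CPM. The cause of the other moves was not tested. List genes past the call numbered 26 at a ratio of 1.5, 10 at a ratio of 3 and 38 without a minimum mean in experiment 1. In experiment 2 they numbered 28, 18 and 45. Without a minimum mean, 20.5% and 28.1% of all genes tested reached a ratio of 2. Shares of all genes at ratios of 1.5 and 3 were not computed, so those list counts have no background beside them. In all, 107 alternative values stayed within the limits set, 27 moved and 6, all of them the correlation in experiment 1, changed sign. Leaving out a hashtag that is neither highest nor lowest cannot change a hashtag ratio. Part of the values that stayed was therefore fixed in advance. No paired analysis was possible because each experiment was 1 library and no hashtag could be tied to a condition.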

Other observations

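The Tcf7 levels of the 8 hashtags of experiment 1 fell into 3 bands, with 95.3, 103, 109 and 118 CPM in hashtags 8, 2, 7 and 1, 161 and 174 CPM in hashtags 6 and 5, and 258 and 273 CPM in hashtags 3 and 4. Cells without a hashtag call had 160.3 CPM of Tcf7 and 6.24 CPM of Lef1 in experiment 1 (535 cells), and 79.2 CPM and 11.2 CPM in experiment 2 (1879 cells). Unnamed cluster 9 of experiment 1, with a median of 2939 UMIs per cell, had 278 CPM of Tcf7 (243 to 316), in the range of the T-lineage-like cluster, although only 9 of its cells reached 10000 UMIs.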
